A study of Caenorhabditis elegans with 2 samples.

Results

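The nematode cuticle is an extracellular coat that the underlying epidermis secretes anew before each larval molt. Most of its protein is collagen, made from a large family of short genes of which those named col followed by a number are the largest part. The products carry stretches of Gly-X-Y repeats that wind into triple helices, and they are hydroxylated, cleaved and crosslinked as the cuticle is made. For many of these genes expression rises and falls once within a larval stage. EOR-1, whose closest human relative is PLZF, is a BTB-domain transcription factor that binds DNA through zinc fingers and acts with Ras and Wnt signalling in C. elegans.

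The col genes were chosen by gene name, as the protein-coding genes of Ensembl release 115 (WBcel235, which is ce11) called col followed by a number, and there were 156 of them among 19973 protein-coding genes. A gene was given an entry of a peak list when the summit lay inside the gene or within 2000 bp of one of its transcript starts. EOR-1 binding had been measured by chromatin immunoprecipitation and sequencing (ChIP-seq) in mixed-sex L3 larvae of strain OP81, genotype unc-119(ed3) III; wgIs81, in which the wgIs81 transgene supplies eGFP-tagged EOR-1. The study has 1 group with 2 biological replicates and no second condition. The promoter of the transgene and the time within L3 are not given in the labels. The authors' list of entries called on both replicates together (the pooled list) held 6708 entries, which include background by its own description and are called candidates here, and 33 peaks stayed after irreproducible discovery rate (IDR) thresholding. Replicate 1 had 2488 entries and replicate 2 had 2610. The larvae were taken whole, so binding in few cells and weak binding in many cells cannot be told apart.

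The protein sequences of these genes matched their name with few exceptions. Translation of the longest annotated coding sequence gave a median of 304 residues (range 154 to 740) and a median of 48 Gly-X-Y triplets in runs of at least 3. In 154 of the 156 proteins there were at least 20 such triplets. The exceptions were col-55, with 15 triplets in 154 residues, and col-17, with 0. In col-17 the coding sequence, translated from its first annotated base, held no run, but another frame of the same exons held 51 triplets. The locus therefore held the repeat. Any frame offset given in the annotation was not read.

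Fewer col genes had a candidate than the share of all genes, while the candidates they had ranked about as the whole list did. Of the 156 genes, 24 had a pooled candidate (15.4%, exact 95% interval 10.1 to 22.0), where 28.4% of all protein-coding genes had at least 1. These 24 genes held 26 candidates, 0.388% of the pooled list. The strongest lay at col-38 and ranked 361, and the median rank of the 26 was 3554.5, beside 3263 over the whole list and 3357 over candidates given to any protein-coding gene. The signal value is the authors' own value for each entry and ranks entries within a list. For col candidates it ran from 2.11 to 9.29 with a median of 3.0, and over the whole list from 2.05 to 114 with a median of 3.10. Of the 26, 4 were among the 1000 strongest (15.4%), as were 14.9% of the whole list. No col gene had a thresholded peak: 0 of 156 allows a share of up to 1.92% (the limit of 3 counts), or 2.34% by the exact interval, and 0.200% of all genes had one. The smallest distance between a col start and a thresholded peak was 6793 bp, at col-53, followed by 7599 bp at col-38. Intervals cover the counting of genes or entries only, neighbouring genes can share an entry, and read depth is unknown. Because the question was posed with results of these data known, the shares are descriptions and no test was run on them.

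Sequences around 5 of the summits were chosen for the letters they hold or lack. The windows run 5′ to 3′ on the strand of the col gene and come from the WBcel235 genome of RefSeq, with exact matches on either strand to GAGAGA, AGACGCAG and TGATAA in capitals. GAGAGA is a GAGA-type sequence, AGACGCAG had been picked out earlier from the strongest entries of these same lists, and TGATAA is a site of the GATA type, the class read by the epidermal factors ELT-1 and ELT-3. The col-2 window is shown for its GAGA run, that of col-180 because it alone held AGACGCAG, that of col-159 and col-160 because a single candidate lay upstream of both, and those of col-145 and col-10 as windows close to a col start in which none of these letters are printed. The col-10 candidate does have a TGATAA match within 100 bp of its summit, outside the shortened window.
col-2, chrIV:10085761-10085961, minus strand: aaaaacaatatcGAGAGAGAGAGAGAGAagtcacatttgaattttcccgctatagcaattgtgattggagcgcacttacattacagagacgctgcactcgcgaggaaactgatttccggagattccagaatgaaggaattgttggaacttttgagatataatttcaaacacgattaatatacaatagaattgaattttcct
col-180, chrX:11710379-11710579, minus strand: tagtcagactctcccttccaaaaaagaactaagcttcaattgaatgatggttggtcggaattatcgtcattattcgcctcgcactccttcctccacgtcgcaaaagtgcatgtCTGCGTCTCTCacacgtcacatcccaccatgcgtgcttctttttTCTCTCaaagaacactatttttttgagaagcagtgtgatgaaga
col-159 and col-160, chrV:13202340-13202540, minus strand: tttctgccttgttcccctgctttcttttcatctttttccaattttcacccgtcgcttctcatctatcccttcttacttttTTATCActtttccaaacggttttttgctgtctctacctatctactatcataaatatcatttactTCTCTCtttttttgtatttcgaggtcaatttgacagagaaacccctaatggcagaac
col-145, chrV:9163030-9163230, minus strand: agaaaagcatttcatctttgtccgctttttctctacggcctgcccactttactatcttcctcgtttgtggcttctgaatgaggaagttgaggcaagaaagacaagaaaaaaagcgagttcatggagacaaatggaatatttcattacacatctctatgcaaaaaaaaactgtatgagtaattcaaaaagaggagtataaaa
col-10, chrV:9165331-9165431, minus strand, shortened to 101 bases to leave out an annotated UTR: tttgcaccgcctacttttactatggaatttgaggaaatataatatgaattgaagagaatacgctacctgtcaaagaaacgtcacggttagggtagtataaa
In the col-2 window GAGAGA starts at bases 13, 15, 17, 19, 21 and 23, a single alternating run, counted from the 5′ end. In the col-180 window AGACGCAG, read on the other strand, starts at base 114 and overlaps a GAGAGA match at base 119, giving 1 unbroken stretch of capitals, and a second GAGAGA match starts at base 158. The window of col-159 and col-160 has a TGATAA match at base 81 and a GAGAGA match nearer its 3′ end, both on the other strand. The GC content of the printed windows ran from 35.6% to 43.8%.

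The strongest col candidates lay nearer to other genes or beyond the end of the col gene. At col-38 on chromosome II there was a pair of overlapping candidates, upstream of col-38 by 540 bp (8569426 to 8569829, signal 9.29, rank 361) and by 761 bp (8569647 to 8570050, signal 5.29, rank 1262). Both lay closer to the divergent start of rpl-5, a ribosomal protein gene, 299 bp and 78 bp upstream of it. The col-2 candidate on chromosome IV (10085659 to 10086062, signal 8.69, rank 413) was 410 bp upstream of col-2 and 276 bp upstream of the divergent gene ndc-80, which encodes a kinetochore protein. At col-181 on the X chromosome (12106030 to 12106433, signal 6.51, rank 808) the summit lay 1086 bp downstream of the start, beyond the gene, and 13 bp from a tRNA gene. At col-17 on chromosome II (4866087 to 4866490, signal 6.44, rank 838) it lay 1287 bp downstream of the start, also beyond the gene's end.

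Those 4 genes, col-38, col-2, col-181 and col-17, were all the col genes reached by the 1000 strongest candidates (2.56%, exact interval 0.703 to 6.43), against 5.83% of all protein-coding genes. Of the next candidates, that of col-144 (rank 1799) lay 80 bp from the start of its gene, and those of col-180, col-94 and col-185 lay at least 969 bp from theirs. The col-180 candidate (X chromosome, 11710277 to 11710680, signal 4.92, rank 1433) was 1801 bp downstream of the col-180 start, beyond the gene's end, and 136 bp upstream of C44C10.11. The col-94 candidate (chromosome III, 10989471 to 10989874, signal 4.26, rank 1880) lay 1800 bp upstream in an intron of dhc-4, a dynein heavy chain gene, and 6 bp from a snRNA gene. The col-185 candidate (X chromosome, 13511864 to 13512267, signal 4.25, rank 1891) lay 969 bp upstream and 25 bp from a tRNA gene. Thus 3 of the 26 candidates, at col-181, col-94 and col-185, had a gene for tRNA, snRNA, rRNA or snoRNA within 200 bp (11.5%), where 3.25% of the pooled list had one. With so few candidates this share is uncertain, no interval was computed for it, and the difference was not tested. The col-99 summit lay just outside that distance from a tRNA gene. These 3 and the col-144 candidate were the col candidates with repeated 36-base stretches, counted from every start position. Of the 36-base stretches in a candidate, 14.6% at col-181, 19.5% at col-94, 12.7% at col-185 and 19.2% at col-144 occurred elsewhere in the genome. In the others it was 0%.

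**Figure D1:**
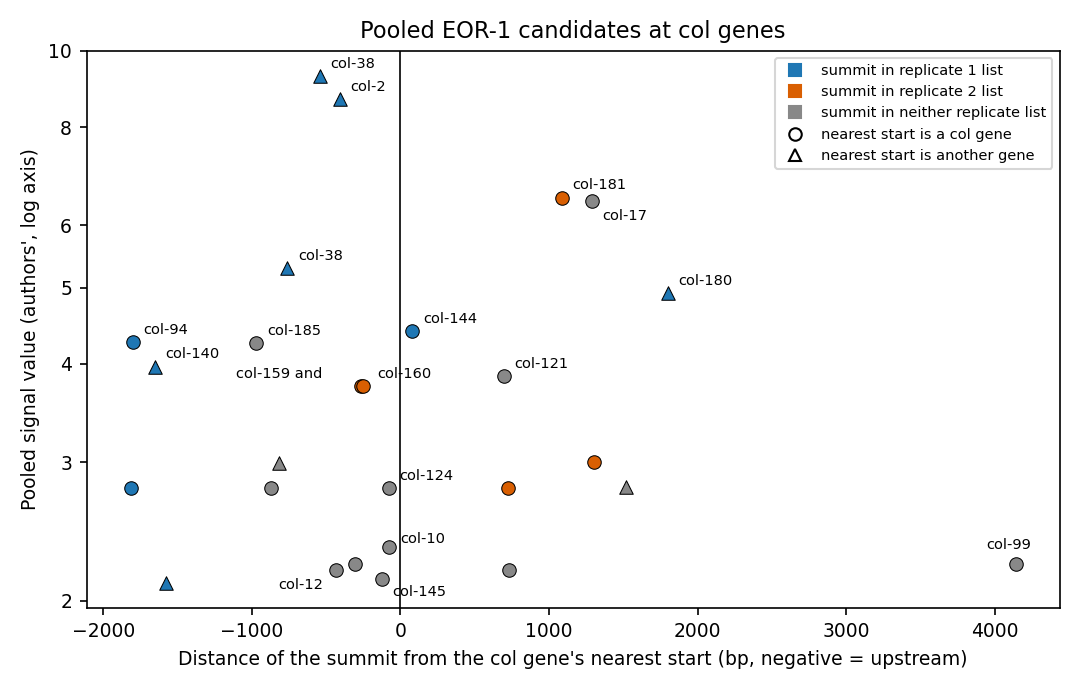
Each point is a pooled candidate at a col gene. The x axis gives the distance of its summit from the nearest start of that gene in bp (negative is upstream) and the y axis the authors' signal value on a log axis. Colour shows which replicate list holds a summit within 200 bp, and triangles mark candidates nearer to the start of another gene. The highest points, at col-38 and col-2 with signal values of 9.29 and 8.69, are triangles, and the candidates within 500 bp of a col start other than col-2 reach 4.40 at most.

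Apart from col-2, candidates close to a col start were of middle or low rank. Within 500 bp of a start there was a candidate for 9 of the 156 genes (5.77%, exact interval 2.67 to 10.7), and 13.2% of all protein-coding genes had one. Besides col-2 these were col-144, col-159, col-160, col-124, col-10, col-132, col-12 and col-145. The col-144 summit lay 80 bp inside the gene, in its coding exon (chromosome V, 9160360 to 9160763, signal 4.40, rank 1799). The shared candidate of col-159 and col-160 (chromosome V, 13202238 to 13202641, signal 3.75, rank 2437) was 263 bp and 251 bp upstream of their starts. The other 5 had signal values of 2.13 to 2.78. They were 80 bp upstream of col-124 (rank 4326, tied among 319 entries), 74 bp upstream of col-10 (rank 5540), 307 bp upstream of col-132 (rank 5806), 433 bp upstream of col-12 (rank 5882) and 125 bp upstream of col-145 (rank 6335). The summits of col-124, col-132 and col-12 fell inside other genes, in an intron of qns-1 and in coding exons of prcc-1 and apc-10.

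The neighbouring genes col-144, col-145 and col-10 on chromosome V each had a candidate at most 125 bp from the own start. Their proteins are close copies, with 97.3% identity between col-10 and col-144 and 92.2% between col-145 and col-10. Of the 3 candidates, those of col-10 and col-145 held no repeated 36-base stretch, and in that of col-144 19.2% of such stretches were repeated. The candidates of col-10 and col-145, ranking 5540 and 6335, had no summit within 200 bp in either replicate list, and that of col-144 had one in replicate 1 (rank 1106, signal 3.16).

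The rest of the candidates were scattered over gene bodies and distant upstream sequence. In or upstream of the col gene lay those of col-121 (chromosome IV, 9395317 to 9395720, coding exon, signal 3.86, rank 2207), col-104 (intron, signal 2.78, rank 3933), col-154 (869 bp upstream, signal 2.78, rank 3933) and col-156 (1814 bp upstream, signal 2.78, rank 4089). The col-8 gene had 1 candidate 818 bp upstream in the 5′ UTR of rfl-1 (signal 2.99, rank 3617) and 1 in its own coding exon 728 bp from the start (signal 2.19, rank 5882). Both candidates of col-90 lay in let-754, an adenylate kinase gene, 1303 bp and 1517 bp from the col-90 start (ranks 3492 and 3916). The col-140 candidate (signal 3.97, rank 2087) lay 1652 bp upstream in a coding exon of F26F12.2. That of col-151, the lowest in rank at 6442, lay 1578 bp upstream in ugt-1. At col-99, a transmembrane collagen and not a cuticle collagen, the summit was 4139 bp downstream of the start, in a coding exon (rank 5789). Among entries of equal signal the rank is the lowest of the tie, and 14 of the 26 candidates had a tied signal value.

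The distance of 2000 bp decided some of the calls. Just inside it were col-156 at 1814 bp (signal 2.78), col-180 at 1801 bp (signal 4.92) and col-94 at 1800 bp (signal 4.26). Just outside were col-153 at 2055 bp (signal 2.77), col-91 at 2221 bp (signal 2.60), col-139 at 2334 bp (signal 2.25) and col-184 at 2399 bp (signal 2.78). The col-19 gene, known for expression in the adult cuticle and control by LIN-29, had its nearest candidate 4257 bp away (rank 4326). The nearest to col-13 was 3729 bp away and was the col-12 candidate. The proteins of col-12 and col-13 are 99.4% identical. Of the 36-base stretches within col-12, 71.1% were found elsewhere in the genome, as were 83.1% of those within col-13. Whether the other copies lay in the partner gene was not checked. The col-12 candidate itself, in front of the gene, held no repeated stretch of that length.

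By place, 12 of the 26 summits were intergenic (46.2%), 8 lay in coding exons (30.8%, exact interval 14.3 to 51.8), 4 in introns (15.4%), 1 in a 5′ UTR and 1 in a 3′ UTR. In the whole pooled list 49.7% were intergenic, 15.1% in coding exons, 29.2% in introns, 3.74% in 5′ UTRs and 2.31% in 3′ UTRs. Of the 8 coding exon summits, those at col-144, col-121, col-99 and col-8 lay in the col gene and the others in a neighbour. Upstream of the nearest col start lay 16 of 26 (61.5%, interval 40.6 to 79.8). For 18 of 26 the nearest protein-coding start was that of a col gene, and 15 of 26 were also given to a gene outside the family. The median distance from the nearest col start was 789.5 bp.

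The share was also lower per length searched. Col genes are short, with a median length of 1220 bp against 2027 bp over all protein-coding genes, so less sequence was searched for each. Counting only summits within 2000 bp of a start, 23 col genes had a candidate (14.7%, exact interval 9.58 to 21.3), against 26.3%. The union of these 2000 bp windows covered 0.589 Mb for col genes and held 42.5 candidates per Mb. For all protein-coding genes it covered 65.1 Mb at 76.4 per Mb, and the genome as a whole had 66.9 per Mb. For the 1000 strongest candidates the densities were 6.80, 12.2 and 9.97 per Mb. Of the 36-base stretches starting in the 2000 bp windows, 6.85% were repeated for col genes and 6.04% for all genes. For those starting in the gene bodies the shares were 12.4% and 5.94%. The sources used here give neither the read length nor how reads with several matches were placed, and the part of repeated sequence in the share was not tested.

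**Figure D2:**
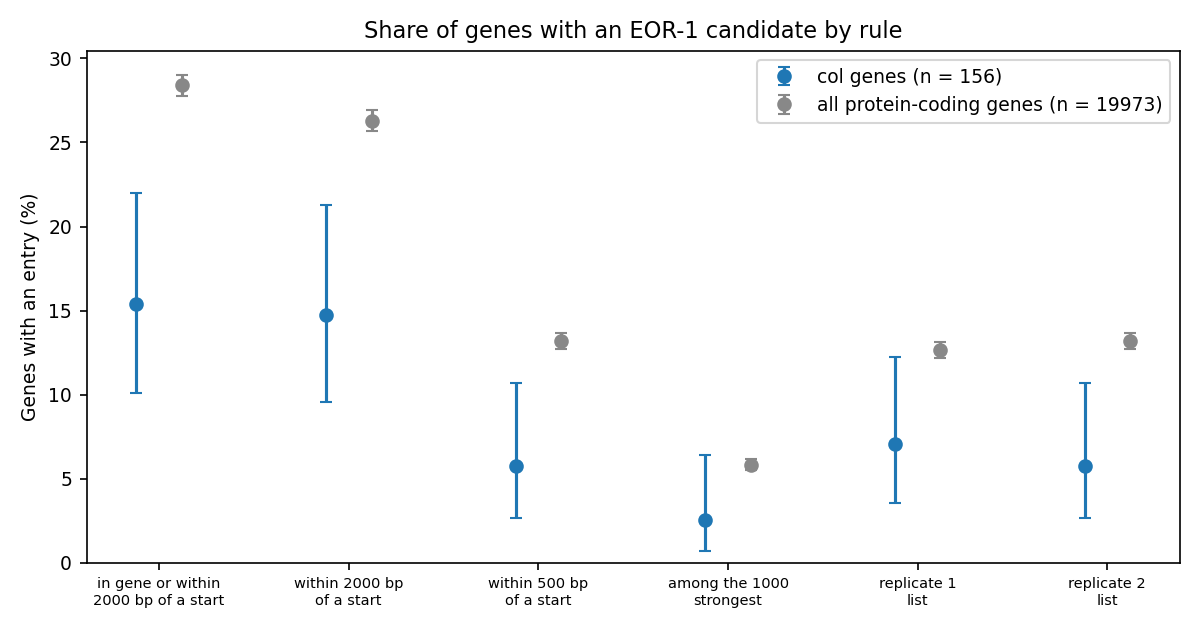
Share of genes with an entry (y axis, percent) under 6 rules (x axis), for the 156 col genes and all 19973 protein-coding genes; bars are exact 95% intervals. Under every rule shown the col point lies below that of all genes, from 15.4% against 28.4% at the left to 5.77% against 13.2% in the replicate 2 list; the interval at the 1000 strongest, 0.703 to 6.43, holds the 5.83% of all genes.

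The share was lower at each depth of the list given here. At the 500 strongest candidates 2 col genes (1.28%) and 3.06% of all genes were reached, at the 2000 strongest 8 (5.13%) and 10.5%, and at the 4000 strongest 16 (10.3%) and 19.2%. Among the 250 strongest there was no col gene, against 1.49% of all genes, but 0 of 156 allows up to 2.34% (exact interval). Each depth contains the smaller ones, so the depths are not separate counts.

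**Figure D3:**
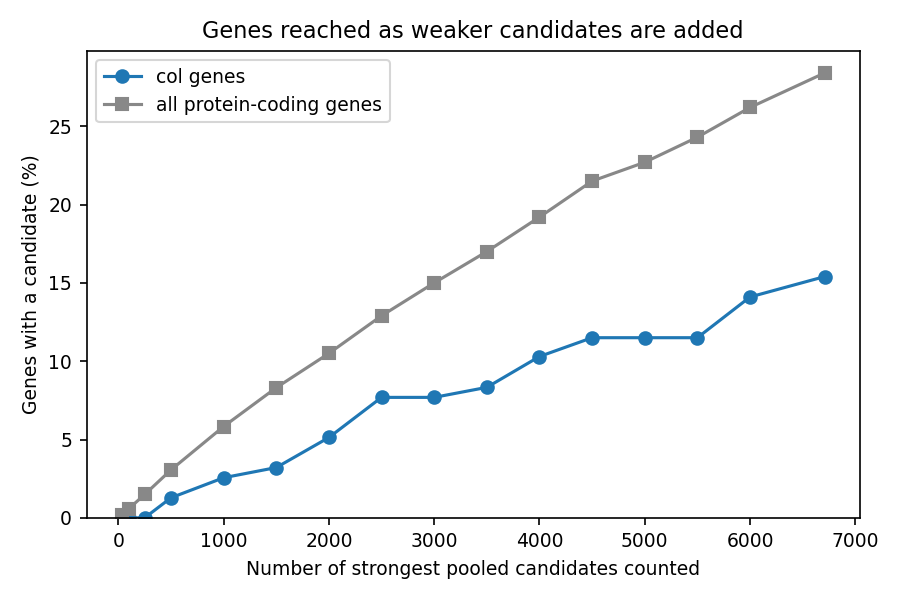
Share of genes with a candidate (y axis, percent) as the strongest pooled candidates are counted from the top of the list (x axis, number of candidates). The col line stays at 0% up to the 250 strongest and ends at 15.4%, below the 28.4% of all protein-coding genes.

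Most col genes with an entry in a replicate list were in 1 of the lists alone, as were most of all such genes. Replicate 1 had an entry at 11 col genes (7.05%, exact interval 3.57 to 12.3; 12.7% of all genes) and replicate 2 at 9 (5.77%, interval 2.67 to 10.7; 13.2% of all genes). In both lists were 3 col genes (1.92%, interval 0.398 to 5.52), col-2, col-159 and col-160, against 5.10% of all genes. Over all genes 1019 were in both lists, of 2530 in that of replicate 1 and 2633 in that of replicate 2. At col-2 the entries of replicate 1 (signal 2.46, rank 1945, 374 bp upstream) and replicate 2 (signal 4.17, rank 505, 136 bp upstream) had summits 238 bp apart. At col-159 and col-160, which overlap on the same strand, the summits lay 1632 bp apart, 1 upstream and 1 downstream of both starts. Another 4 genes, col-110, col-111, col-175 and col-176, had an entry in 1 replicate and no pooled candidate, and 128 of the 156 had no entry in any of the 3 lists.

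Of the 26 pooled candidates none had a summit within 200 bp in both replicates. This allows up to 11.5% (3 counts) or 13.2% (exact interval). Over the whole list the share was 7.80%. It was 42.8% in the 1000 strongest and 1.66% below them, where 22 of the 26 col candidates were. The pooled entries already contain each replicate's reads, so these shares describe the lists. Replicate 1 held 9 of the 26 (34.6%, against 31.2% of the whole list) and replicate 2 held 4 (15.4%, against 28.4%). The stronger col-38 candidate ranked 87 in replicate 1 with a signal of 8.68, and its overlapping partner ranked 434 with a signal of 4.93, while neither had a summit in replicate 2. The col-181 candidate was the reverse, ranking 185 in replicate 2 with a signal of 5.97 and missing from replicate 1. That of col-17, of nearly equal pooled signal, was in neither list. In total 13 of the 26 were in neither.

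**Figure D4:**
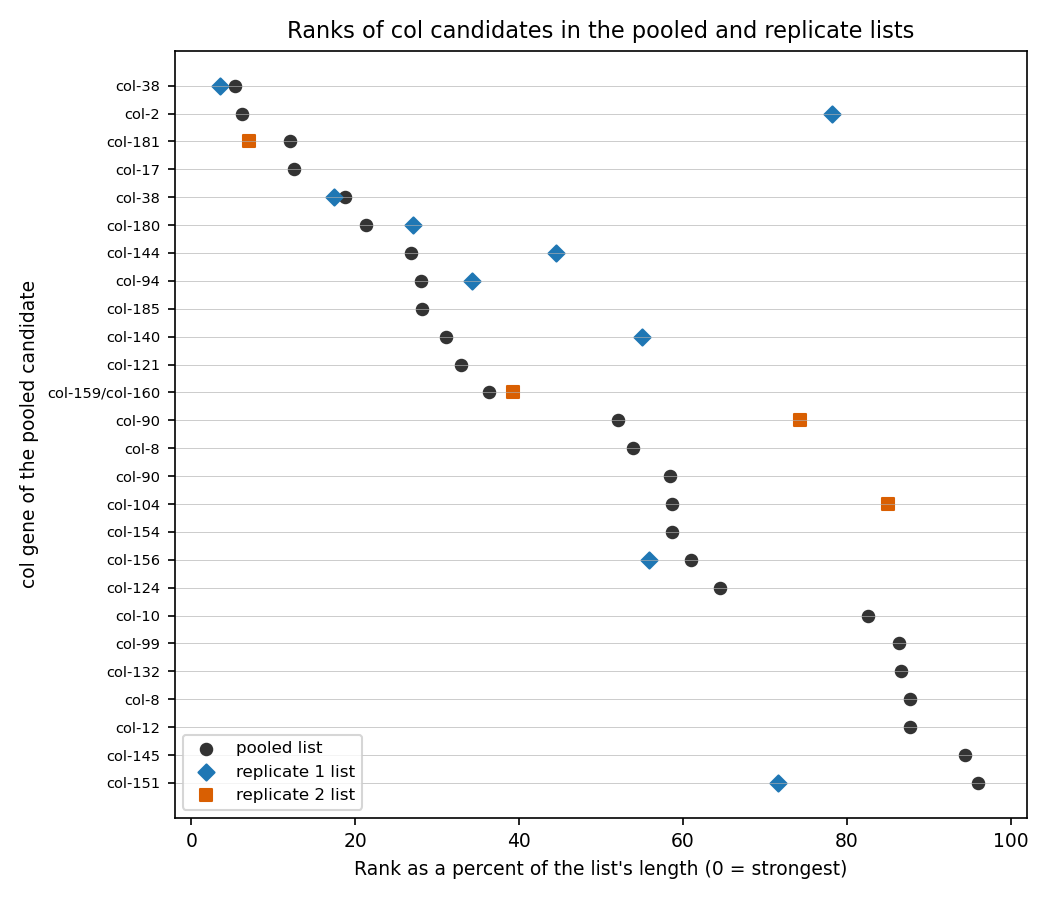
Rank of each of the 26 col candidates (rows, strongest pooled signal at the top) in the pooled list and, where a summit lay within 200 bp, in a replicate list, as a percent of the list's length (x axis, 0 is strongest). No row carries both a blue and an orange mark, and 13 rows carry neither.

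GAGA-type letters were about as frequent at col candidates as in the list as a whole. GAGAGA was found within 100 bp of the summit in 8 of 26 (30.8%, exact interval 14.3 to 51.8), against 26.9% of the pooled list. The holders were at col-2, col-181, the weaker col-38 candidate, col-180, col-185, the shared site of col-159 and col-160, the upstream col-8 candidate and col-156. AGACGCAG was found at col-180 alone (3.85%, against 7.13%), and TGATAA at the col-159 and col-160 site and at col-10 (7.69%, interval 0.946 to 25.1, against 16.4%). The strongest col candidate, at col-38, held none of the 3 within 100 bp of its summit, and its GC content was 29.4%, the lowest of the 26. The median GC content of the col windows was 38.1%, and that of the whole list 40.3%.

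The promoters of the family, read without regard to binding, held these letters too. In the 500 bp upstream of the first start GAGAGA was present in 55 of 156 col genes (35.3%, exact interval 27.8 to 43.3) and in 29.98% of all protein-coding genes. TGATAA was present in 89 (57.1%, interval 48.9 to 64.9) and in 43.7%, and AGACGCAG in 8 (5.13%) and in 5.30%. Among the 24 genes with a candidate, 15 had GAGAGA (62.5%, interval 40.6 to 81.2) and 19 had TGATAA (79.2%, interval 57.8 to 92.9) in this window. AGACGCAG was in 1 of the 24 (4.17%). The same shares over all protein-coding genes with a candidate were not counted, and the differences were not tested. Most of the 24 genes had no candidate within 500 bp of a start. Within 100 bp of the summits GAGAGA was found in 8 of 26 candidates and TGATAA in 2. A match is a description of the letters and does not mark a bound site.

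Col genes of chromosome V had more candidates than those elsewhere. There 10 of 31 had one (32.3%, exact interval 16.7 to 51.4), against 20.8% of all genes of that chromosome, and they were col-10, col-12, col-140, col-144, col-145, col-151, col-154, col-156, col-159 and col-160. On chromosome IV the count was 6 of 41 (14.6% against 27.5%), on X 3 of 27 (11.1% against 31.9%), on III 3 of 12 (25% against 35.9%) and on II 2 of 24 (8.33% against 26.6%). None of the 21 col genes of chromosome I had a candidate, which allows up to 14.3% (3 counts) or 16.1% (exact interval), where 34.6% of all genes on it had one. The intervals are wide, differences between chromosomes were not tested, and col-159 and col-160 share a candidate.

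**Figure D5:**
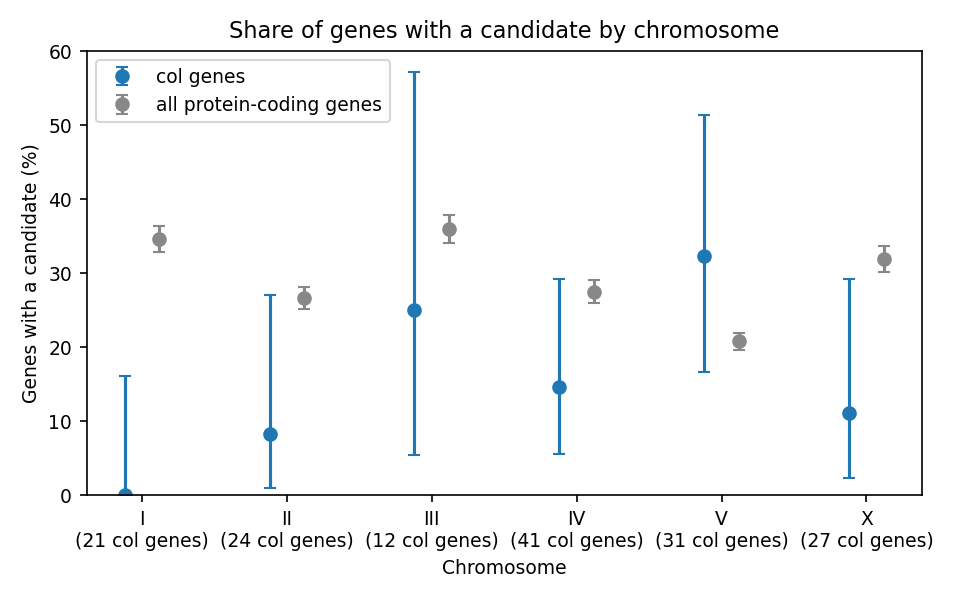
Share of genes with a pooled candidate (y axis, percent) on each chromosome (x axis), for col genes and for all protein-coding genes; bars are exact 95% intervals. Chromosome V is the place where the col point, at 32.3%, lies above that of all genes, at 20.8%, and chromosome I has 0 of 21.

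Cuticle collagens with names from mutant phenotypes were counted in a pair of lists, and the highest signal in them was that of sqt-2. Of 6 furrow collagens, which build the circumferential furrows of the cuticle, dpy-8 (rank 3515, signal 3.0, 945 bp upstream) and dpy-9 (rank 4763, signal 2.69, in a coding exon) had one, and dpy-2, dpy-3, dpy-7 and dpy-10 had none. Of 15 further cuticle collagens found under their listed names, 5 had one, namely sqt-2, bli-2, lon-3, dpy-13 and dpy-4. The sqt-2 candidate (chromosome II, 24444 to 24847, signal 9.42, rank 347) had summits in both replicates, ranking 213 and 1639. It lay 1321 bp downstream of the sqt-2 start and was nearest to the start of enee-1. The others ranked 2026 to 5014, and bli-1, bli-6, dpy-5, dpy-14, dpy-17, rol-1, rol-6, rol-8, sqt-1 and sqt-3 had none. These counts (33.3% in each list) stand beside the 28.4% of all genes and have exact intervals of 4.33 to 77.7 and 11.8 to 61.6.

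Genes that act on collagens were few, and the interval of their share was wide. Of 13 genes for modification, processing and crosslinking, 4 had a candidate (30.8%, exact interval 9.09 to 61.4, against 28.4% of all genes). They were pdi-2, dpy-31, bli-4 and phy-2. The gene pdi-2 encodes a protein disulfide isomerase and subunit of prolyl 4-hydroxylase. Its strongest candidate lay in a coding exon, 1978 bp downstream of the start (rank 638, signal 7.27, in replicate 2). That of dpy-31, an astacin protease that cleaves procollagen, lay 660 bp upstream (rank 1496, signal 4.82). Those of bli-4, a proprotein convertase (rank 2305, signal 3.86), and phy-2, a catalytic subunit of prolyl 4-hydroxylase (rank 3263, signal 3.10), also lay in coding exons. They were 663 bp and 1929 bp downstream of a start. Of 6 cuticlins, cut-2 had one (rank 4089, signal 2.78), a share of 16.7% with an exact interval of 0.421 to 64.1. Of the 4 collagens outside the cuticle that were listed, cle-1, the collagen XVIII homologue, had one in an intron (rank 2244, signal 3.86), and emb-9 and let-2, the type IV collagens of basement membranes, had none.

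Among the epidermal and molting transcription factors 6 of 10 had a candidate (60.0%, exact interval 26.2 to 87.8, against 28.4%). The strongest was at lin-42, the worm homologue of Period, in an intron and 1022 bp from the nearest start (chromosome II, 1237789 to 1238192, signal 8.58, rank 430), with ranks of 455 and 2057 in the replicates. The nuclear receptor gene nhr-23, which drives molting, followed in an intron 535 bp from a start (signal 6.01, rank 962), then myrf-1 (signal 5.76, rank 1047) and blmp-1 (signal 5.31, rank 1260). Candidates at elt-3 and lin-29 ranked 5719 and 3907, and bed-3, elt-1, grh-1 and nhr-25 had none. Counting only summits within 2000 bp of a start, 5 of the 10 had one, against 26.3% of all genes. Taking the strongest candidate of each gene, only that of lin-42 had summits in both replicates. Those of nhr-23, blmp-1 and elt-3 were in replicate 1 alone, that of lin-29 in replicate 2 alone and that of myrf-1 in neither. The lengths of these genes were not compared with those of all genes, and no test was run on the list.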

How the data were processed

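EOR-1 ChIP-seq of 2 biological replicates of L3 larvae was grouped and numbered by the labels. The authors deposited narrowPeak lists: per the deposited file lists, 1 for each replicate, 1 called on pooled reads against control data, and 1 kept after IDR thresholding. The sources used here do not give the aligner, caller, filters or thresholds. The deposited signal value ranked entries within a list only. The deposited −log10 q-value was not used for ranking, since 784 pooled entries shared its maximum. Lists on ce10 were not used.

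Summits were joined to WBcel235 genes of Ensembl release 115 with Python 3.11.15 and pandas 2.3.3, and coordinates are 1-based on ce11. Summits within 200 bp counted as shared. Letters were searched on both strands within 100 bp of summits, and proteins aligned with biopython 1.88. Exact intervals came from scipy 1.17.1. The joins were checked on planted summits.

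The members, lists and alternatives were chosen with earlier results of these data known. Named genes were the 20 col genes with the highest signal, col-10, col-12, col-13, col-17, col-19 and col-99, and up to 4 members of each other list. Others were named after their values were seen. Widths, distances and lists tried as alternatives appear in the closing section.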

Additional observations from a re-analysis of the deposited data

How the results depend on the processing

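The share of col genes with a candidate, 15.4% by the main rule, was 8.33% when summits had to lie within 500 bp of a start or inside the gene and 36.5% within 5000 bp. It was 2.56% with the 1000 strongest candidates, 0% with the thresholded list, and 5.77% to 7.05% with a single replicate's list. The share of all protein-coding genes, 28.4%, was 19.3% within 500 bp, 22.4% within 1000 bp, 44.8% within 5000 bp, 26.3% by distance to a start alone and 18.95% by nearest start alone (col genes 10.9%). It was 5.83% with the 1000 strongest, 0.200% with the thresholded list and 12.7% to 13.2% with a single replicate. The col share was the lower under each of these, though 0 of 156 cannot be told from 0.200%. The 4 col genes reached by the 1000 strongest candidates became 1 within 500 bp, 2 within 1000 bp, 9 within 5000 bp and 2 by nearest start alone. Fewer or more places searched make these counts fall or rise by construction. The median rank, the GAGAGA share, the upstream share and the share in both replicates stayed inside their intervals or within 1.5 times; the last was 3.85%, the col-2 site, when summits within 500 bp counted as shared. Read depth is unknown, and with 26 candidates the intervals are wide.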
